A study of Mus musculus with 18 samples.

Results

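The subject is a group of 10 transcription factors of the astrocyte lineage, followed in primary cortical astrocyte cultures exposed to ethanol. The 10 genes, *Sox9*, *Sox2*, *Nfia*, *Nfib*, *Nfic*, *Nfix*, *Rfx4*, *Zbtb20*, *Lhx2* and *Hes5*, were taken by name from the deposited count table of 51912 genes. All 10 were found there and all 10 had the 10 read pairs over all libraries that were required for testing, which 24495 genes reached. The cultures came from the cortex of postnatal day 0 mice, males and females in equal number, with the Aldh1l1-EGFP/Rpl10a transgene. The mice were hemizygous offspring of line JD130Htz (B6;FVB) bred with C57BL/6J. In this transgene, regulatory sequence of *Aldh1l1*, an astrocyte gene, drives a ribosomal protein with an EGFP tag. The cells were grown to confluence, replated and grown further before treatment. Every group carried this transgene. In translating ribosome affinity purification (TRAP), tagged ribosomes were pulled down with antibodies to the tag, so the IP fraction holds ribosome-bound RNA of the cells that express the tag, and the input fraction holds RNA of the cleared lysate of the whole dish. All dishes were without serum before and during treatment, and they held medium with 0 mM (control) or 50 mM ethanol for 24 h. There were 6 IP control, 6 IP ethanol, 3 input control and 3 input ethanol libraries, and each input library shared its dish with the IP library of the same treatment and replicate number (replicates 4 to 6). Input dishes were an arbitrary choice among the 12. A replicate is a dish, and since nothing states that dishes came from separate cultures, p-values measure the spread between dishes.

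The 10 factors act in neural progenitors, in radial glia or in astrocytes. *Sox2* keeps neural progenitors in a self-renewing state and stays on in astrocytes. *Sox9*, a related HMG box protein, starts the switch of progenitors to glia and works with *Nfia*, a nuclear factor I (NFI) protein. The 4 NFI genes encode proteins with a common DNA-binding domain that bind the same palindrome. *Rfx4*, *Zbtb20* and *Lhx2* act in radial glia of the dorsal forebrain, and *Hes5* is a repressor that Notch signalling turns on through RBPJ in progenitors.

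On GRCm38, *Sox9* lies at chr11:112782224-112787760 and *Sox2* at chr3:34650405-34652461, both on the plus strand and both short genes. The NFI genes are long, with *Nfia* at chr4:97772734-98118874 (plus), *Nfib* at chr4:82290173-82705750 (minus), *Nfic* at chr10:81396186-81455635 (minus) and *Nfix* at chr8:84699876-84800344 (minus). *Rfx4* lies at chr10:84756062-84906538, *Zbtb20* at chr16:42875881-43642602, *Lhx2* at chr2:38339281-38369733 and *Hes5* at chr4:154960923-154962371, all on the plus strand. The counts were made without regard to strand and set aside pairs shared with an overlapping gene. Exons of *Nfix* overlap 137 bases of *G430095P16Rik* and those of *Nfic* 72 bases of *Gm16104*, both on the opposite strand, and on the annotated strand alone they had 5.72% and 3.02% more pairs, with the same calls in every comparison.

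The number of read pairs counted on genes was between 74239854 and 132810705 per library, with a median of 84119135. The closest pair of libraries of a group had a chi-square of 4.46 per degree of freedom over genes, where sampling noise alone gives 1, so no library was a copy of another. All 10 astrocyte markers examined, *Sox9* among them, averaged at least 1 CPM (counts per 1e+06 read pairs, scaled with TMM). Their summed level was 1167 to 1247 CPM in input and 1799 to 2000 CPM in IP libraries. The summed level of 8 microglia markers was 82.1 to 101 CPM in input and 23.1 to 30.4 CPM in IP. That of 8 fibroblast and meningeal markers was 409 to 417 CPM in input and 245 to 272 CPM in IP. The oligodendrocyte lineage list (9 markers, mainly *Olig1*) summed to 161 to 184 CPM in input and 250.4 to 289 CPM in IP, with *Mog* below 0.1 CPM in every group. The neuronal list (9 markers) summed to 161 to 172 CPM in input and 207 to 230.5 CPM in IP, with *Dcx* and *Snap25* below 0.1 CPM. *Acta2*, a contractile actin, was the most abundant gene of the endothelial and mural list with 1186 ± 34.2 CPM in input control (SD, n = 3). Of the endothelial genes on that list, *Cldn5* was at 0 in every library. Others were detected, with *Kdr* at 3.34 ± 0.363 CPM and *Cdh5* at 0.278 ± 0.145 CPM in input control.

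Promoter sequences are shown for 3 members at the ends of the ranges reported here, as a description of their start sites. RefSeq windows of 300 bases (build GRCm38.p6) were at hand for 8 of the 10 genes, 13 windows in all, and none for *Sox9* and *Nfib*. The 250 bases upstream of the start are printed 5′ to 3′ for *Hes5* (chr4:154960673-154960922, plus strand), the least abundant member, *Zbtb20* (chr16:43247034-43247283, plus strand), the member most enriched in IP, and *Sox2* (chr3:34649745-34649994, plus strand), the most abundant per length. The RefSeq start of *Sox2* lies upstream of the gene start given above and that of *Zbtb20* inside its gene. Capitals mark the RBPJ site TGGGAA and the SOX site ACAAAG on either strand, so that TTCCCA and CTTTGT are the same sites read from the other strand.
Hes5: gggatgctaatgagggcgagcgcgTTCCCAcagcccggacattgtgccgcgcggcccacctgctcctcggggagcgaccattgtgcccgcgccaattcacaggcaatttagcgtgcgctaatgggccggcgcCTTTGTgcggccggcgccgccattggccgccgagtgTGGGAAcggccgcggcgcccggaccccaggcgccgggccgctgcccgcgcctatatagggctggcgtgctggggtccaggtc
Zbtb20: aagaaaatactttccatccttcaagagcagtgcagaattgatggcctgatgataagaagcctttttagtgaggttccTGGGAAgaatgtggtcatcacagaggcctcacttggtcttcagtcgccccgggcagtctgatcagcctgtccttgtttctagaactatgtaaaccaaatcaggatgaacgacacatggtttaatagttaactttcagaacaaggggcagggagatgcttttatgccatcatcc
Sox2: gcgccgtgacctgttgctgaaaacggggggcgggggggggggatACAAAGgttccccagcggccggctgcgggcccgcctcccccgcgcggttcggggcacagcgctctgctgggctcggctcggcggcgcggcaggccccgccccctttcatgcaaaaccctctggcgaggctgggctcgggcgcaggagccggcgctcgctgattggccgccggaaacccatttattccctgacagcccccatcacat
The *Hes5* window held the RBPJ letters at 2 places, 226 and 82 bases before the start, and the SOX letters at 1 place, 118 bases before it. The *Zbtb20* window held the RBPJ letters 173 bases before its start, and both *Lhx2* windows held them as well. TGGGAA was thus in 4 of the 13 member windows, and it was in 25.6% of all 32851 promoter windows. ACAAAG was in 4 of the 13 windows (18.7% of all windows) and the HES N box CACNAG in 4 (42.5%). The RFX motif GTTGCC was in 1 window, that of *Nfia* (12.5% of all windows), and the LIM homeobox site TAATTA in 1, that of *Nfix* (5.29%). The NFI motif TTGGCA was in none of the 13 windows (14.1% of all windows). All 6 motifs were searched on both strands of the 300 bases. A match is only a run of letters and says nothing of binding.

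The 9 abundant factors spanned about an order of magnitude and *Hes5* lay far below them. Per length of exons (CPM per kb of exon union), *Sox2* had the highest level on this scale in each of the 4 groups, with 94.9 ± 3.02 in input control (n = 3) and 114 ± 1.55 in IP control (n = 6). *Nfix* came next with 77.3 ± 1.0 in input control and 86.4 ± 2.02 in IP control, followed by *Lhx2* with 40.9 ± 1.19 and 53.1 ± 1.74. *Sox9* (30.8 ± 0.392) and *Nfic* (31.5 ± 0.669) overlapped in input control, while in IP control *Sox9* was above *Nfic*, at 38.0 ± 0.879 against 30.2 ± 0.440, with no overlap. *Nfib* had 15.0 ± 0.281 in input control and 18.7 ± 0.520 in IP control. *Zbtb20* and *Rfx4* overlapped in input control at 10.5 ± 0.270 and 10.7 ± 0.254, but in IP control *Zbtb20* had 18.6 ± 1.17, overlapping *Nfib*, and *Rfx4* had 12.7 ± 0.363. *Nfia* was the lowest of the 9, with 9.001 ± 0.0199 in input control and 9.65 ± 0.347 in IP control. This order depended on the length used, at its top and lower down. With the longest transcript as the length, *Zbtb20* was below *Nfib* in IP control (21.3 ± 1.33 against 30.6 ± 0.853). In input control *Nfic* was then above *Sox9* (33.5 ± 0.711 against 30.8 ± 0.392) and *Rfx4* above *Zbtb20* (14.2 ± 0.339 against 11.9 ± 0.309). None of these pairs overlapped on that scale. Per kb of the longest transcript *Nfix* was first in all 4 groups, above *Sox2* with no overlap in input control (103.8 ± 1.34 against 94.9 ± 3.02) and overlapping it in the other groups (116 ± 2.71 against 114 ± 1.55 in IP control).

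**Figure D1:**
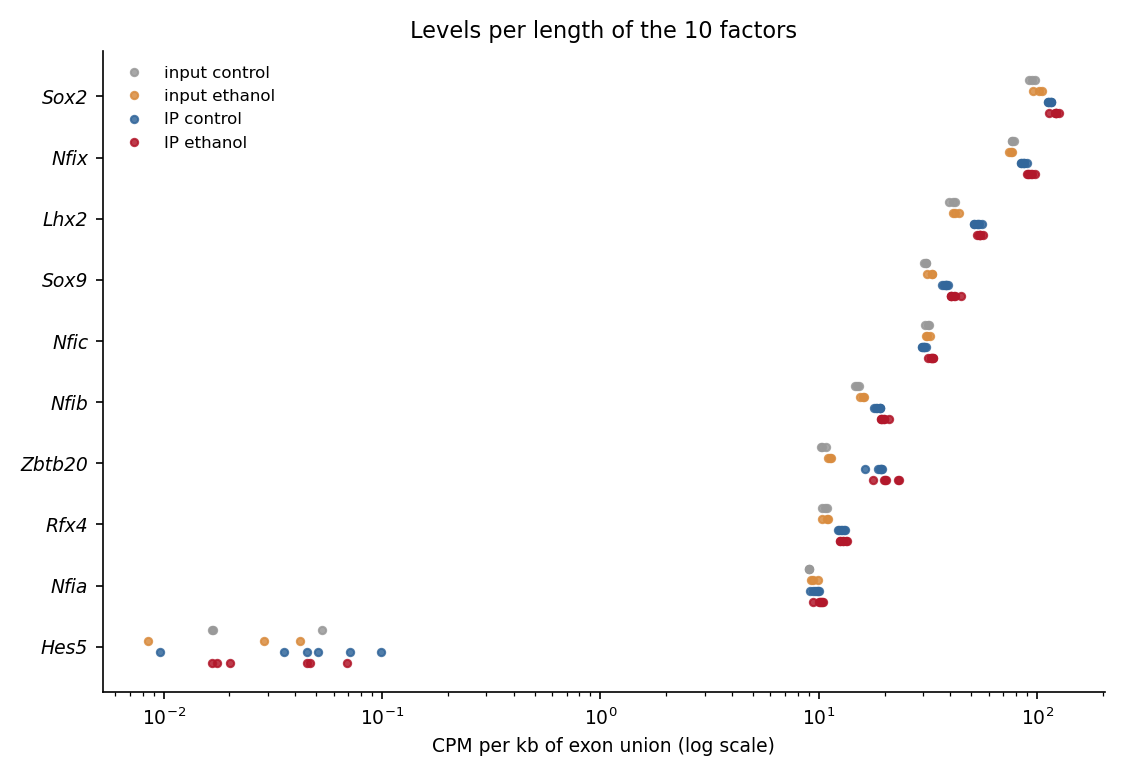
Level of each factor per length, in CPM per kb of exon union on a log axis. Each point is 1 library and colours mark the 4 groups (3 libraries in each input group, 6 in each IP group). From *Nfia* to *Sox2* the points run from about 9 to above 100, and the *Hes5* points all lie below 0.1.

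The 4 NFI genes together give an idea of which NFI transcript prevails. As a share of their summed level per kb of exon union, *Nfix* made up 58.2% ± 0.0883 in input control, *Nfic* 23.7% ± 0.304, *Nfib* 11.3% ± 0.270 and *Nfia* 6.78% ± 0.0637 (n = 3). In IP control the share of *Nfib* was higher, at 12.9% ± 0.156, and that of *Nfic* lower, at 20.8% ± 0.327 (n = 6), and neither range overlapped its input control range. *Nfix* was the largest with 59.7% ± 0.406, and its share was also higher than in input control with no overlap (59.25% to 60.26% against 58.16% to 58.33%). With the longest transcript as the length, *Nfix* was again the largest in both groups (60.3% and 61.2%). On that scale *Nfic* and *Nfib* were closer, at 19.5% and 14.3% in input control and 16.9% and 16.1% in IP control.

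The first comparison asked how these transcripts divide between ribosome-bound RNA of the tagged cells and RNA of the whole dish. Of the 10 factors, 8 had higher counts in IP than in input at an adjusted p below 0.05 (edgeR's quasi-likelihood test) and none was called lower. Of all genes tested, 51.0% differed between fractions and 25.2% were higher in IP. The 7 factors *Sox9*, *Sox2*, *Nfib*, *Nfix*, *Rfx4*, *Zbtb20* and *Lhx2* had every IP library above every input library, as did 13.1% of all genes. The median log2 fold change of the 10 was 0.29, beside -0.03 over all genes. In bulk RNA, a higher share of cells of a type and more RNA per cell cannot be told apart. Nor can either be told from a larger part of a gene's transcripts being on ribosomes, since IP holds ribosome-bound RNA. Other cell type markers moved with this comparison. In IP, 7 of 8 microglia markers were lower and none higher, and of the fibroblast and meningeal markers 6 of 8 were lower and 2, *Foxc1* (0.36) and *Col1a2* (0.28), higher. Of the ependymal markers 3 of 5 were higher and none lower, led by *Foxj1* with 365 ± 9.03 CPM in input control and 433 ± 12.3 CPM in IP control. Of the 7 endothelial and mural markers tested, 3 were higher and 2 lower. Of the oligodendrocyte lineage markers 4 of 9 were higher and 4 lower, and of the neuronal markers 5 of 9 were higher and 1 lower. Their part in the result was not tested. *Aldh1l1*, whose promoter drives the tag, had a log2 fold change of 1.05 (SE 0.0216), larger than that of any member.

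*Zbtb20*, a zinc finger repressor of the BTB family, had the largest difference of the 10 among those that passed, with 332.6 ± 14.1 CPM in input (n = 6) and 605 ± 60.4 CPM in IP (n = 12). The input libraries ran from 316 over a median of 334.5 to 349 CPM and the IP libraries from 502 over 594 to 717 CPM. Its log2 fold change was 0.86 (SE 0.0533, adjusted p = 2.64e-10), a 1.82-fold difference. In the 6 dishes with both fractions the ratio of IP to input lay between 1.77 and 2.05.

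*Lhx2*, a LIM homeobox factor that holds cortical progenitors to their fate, followed with 183 ± 6.24 CPM in input and 237 ± 7.16 CPM in IP (log2 fold change 0.37, SE 0.0199, adjusted p = 3.97e-27). *Sox9* had 131 ± 4.57 and 164.4 ± 9.59 CPM (0.33, SE 0.0211, adjusted p = 4.05e-23), and *Nfib* 231 ± 8.58 and 287 ± 11.9 CPM (0.32, SE 0.0195, adjusted p = 5.97e-24). These 3 and *Zbtb20* also passed a test against a fold of 1.2. *Sox2* (0.26, SE 0.0201), *Rfx4*, a winged helix factor of the RFX family (0.26, SE 0.0233), and *Nfix* (0.23, SE 0.0207) passed the test of no change but not that of a 1.2-fold change. *Nfia* was higher by only 0.09 (SE 0.0217, adjusted p = 0.00016), with overlapping libraries (97.9 to 108 CPM in input, 99.1 to 114 CPM in IP). The *Nfia* call was lost when total counts replaced TMM (0.04, adjusted p = 0.0947).

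*Nfic* was the one abundant member whose difference did not pass, with 209 ± 4.22 CPM in input and 208 ± 9.51 CPM in IP (log2 fold change -0.0050, 95% interval -0.04 to 0.03, adjusted p = 0.864). This value depended on treatment and scaling. In the control libraries alone *Nfic* was lower in IP (-0.08, adjusted p = 0.00498), and in the ethanol libraries alone its fold change was 0.05 (adjusted p = 0.154). With total counts *Nfic* was lower in IP, at -0.06 (adjusted p = 0.0134).

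**Figure D2:**
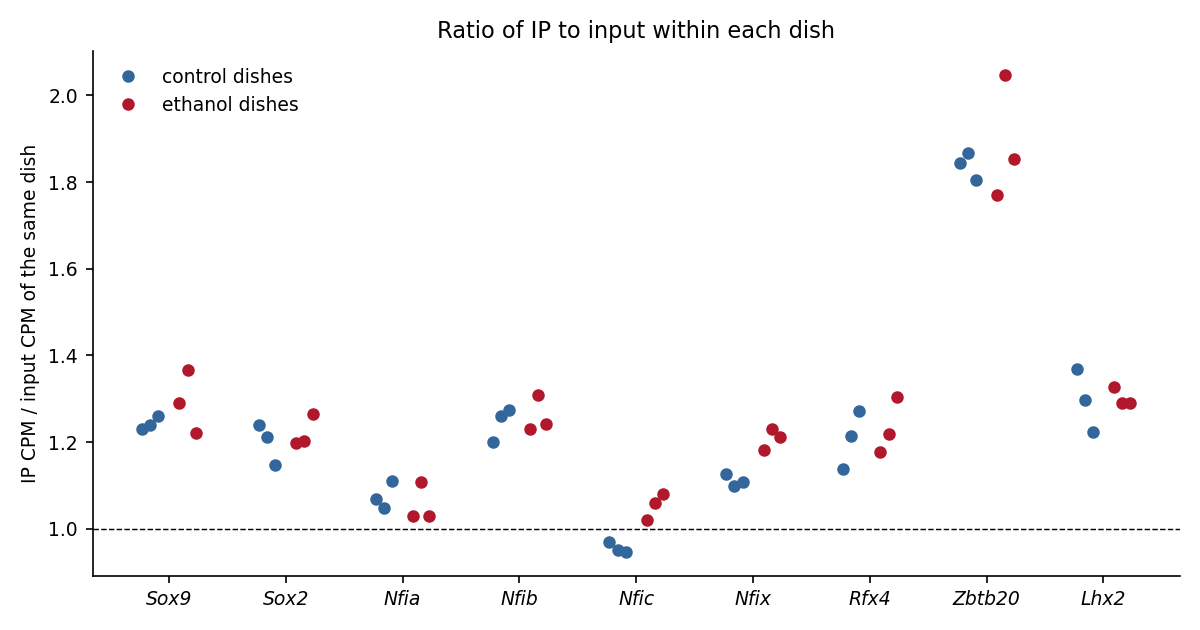
Ratio of IP to input CPM within each of the 6 dishes sequenced in both fractions, for the 9 abundant factors. Each point is a dish (3 control, 3 ethanol) and the dashed line marks equal levels. *Zbtb20* lies at 1.77 to 2.05, and *Nfic* is the only factor with dishes below 1, all 3 of them control dishes.

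*Hes5* had only 80 read pairs over the 18 libraries, 1 to 10 in each. The input libraries held 0.0116 to 0.0724 CPM and the IP libraries 0.0131 to 0.135 CPM, and the groups overlapped in every comparison. The log2 fold change of IP over input was 0.62 with a 95% interval from -0.43 to 1.67 (adjusted p = 0.353), so a difference of this size was not detectable at this depth. Pairs shared with *Gm20421*, which overlaps 433 bases of *Hes5* exons on the opposite strand, were set aside in the counts without regard to strand. On the annotated strand alone *Hes5* had 125 pairs, and 31 pairs lay on the opposite strand.

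Related genes gave *Hes5* a context. *Hes1*, the other main Notch target of this kind, had 31.7 ± 2.43 CPM in input control (n = 3) and 29.5 ± 1.09 CPM in IP control (n = 6). Of the 12 Hes, Hey and Id repressors listed beside *Hes5*, 4 were higher in IP and 1, *Hes1* itself, was lower (-0.12, SE 0.0311), and 9 averaged at least 1 CPM. *Id4*, which blocks proneural factors, was among the higher ones (0.46, SE 0.0298), as was *Id1* (0.27, SE 0.0290). The Notch pathway was present: 12 of its 16 genes averaged at least 1 CPM, with *Notch2* at 242 ± 1.95 and *Rbpj* at 78.7 ± 0.879 CPM in input control (n = 3). In IP, 5 of the 16 were higher, led by the ligands *Dll1* (0.45, SE 0.0623) and *Jag1* (0.43, SE 0.0230) and the receptor *Notch3* (0.40, SE 0.0279), and 4 were lower, among them the glycosyltransferase *Rfng* (-0.68, SE 0.0297). *Notch2*, *Rbpj* and *Hes1* were named here for their levels after these were seen.

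Among relatives of the members, other families did not move as one. Of 14 tested SOX genes, 7 were higher and 3 lower in IP, with *Sox1* (0.68, SE 0.0272), *Sox7* (0.64, SE 0.0536) and *Sox8* (0.52, SE 0.0294) among the higher and *Sox13* (-0.60, SE 0.0315) and *Sox12* (-0.38, SE 0.0345) among the lower ones. Of 6 RFX genes, 2 were higher and 1 lower. Of 13 tested LIM homeobox and partner genes, none was higher and 4 were lower, beside 6326 lower of all 24495 genes tested. Only 5 of these 13 averaged at least 1 CPM. *Lmx1b* was at -0.999 (SE 0.0238), and *Lhx2* differed in sign from the called genes of its own list. Among 31 other astroglial and radial glial factors, 22 were higher and 6 lower, with *Rorb* (0.74, SE 0.0453) and *Stat3*, a driver of *Gfap* transcription (0.58, SE 0.0191), high and *Hopx* low (-0.79, SE 0.0485). Of 18 astrocyte genes named as targets of NFI proteins or SOX9, 15 were higher in IP and 2 lower. *Gfap*, the glial intermediate filament, had a log2 fold change of 0.78 (SE 0.0277) and *Slc1a2*, a glutamate transporter, of 0.83 (SE 0.0316), while *Apcdd1* (-1.50, SE 0.05) and *S100b* (-0.49, SE 0.0725) were lower. Factors of other fates went both ways, 6 of 15 higher and 4 lower. *Olig1* and *Olig2*, which serve the oligodendrocyte lineage, had 0.72 (SE 0.0221) and 0.59 (SE 0.0279), and *Spi1*, the microglial PU.1, had -2.28 (SE 0.0613).

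The second comparison asked what ethanol did to ribosome-bound transcripts in 12 IP libraries. Of the 10 members, 6 rose with ethanol and none fell, beside 21.4% of all genes that changed and 11.9% that rose. The 6 were *Sox9*, *Nfic*, *Nfix*, *Nfib*, *Sox2* and *Nfia*, which include all 4 NFI genes and both SOX genes. All rises were small, with folds of 1.05 to 1.10, and none passed a test against a fold of 1.2. The median log2 fold change of the 10 was 0.09, beside 0.0054 over all genes. *Sox9*, *Nfib* and *Nfic* had every ethanol library above every control library, as did 5.09% of all genes in that direction.

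*Sox9* had 157 ± 3.64 CPM in IP control, from 151.3 over a median of 158 to 162 CPM, and 172 ± 7.44 CPM in IP ethanol, from 166.2 over 170 to 186 CPM (n = 6 each). The ranges did not overlap, and the log2 fold change was 0.14 (SE 0.0256, adjusted p = 2.51e-05). *Sox2* went from 235 ± 3.18 to 249 ± 8.48 CPM (0.09, SE 0.0239, adjusted p = 0.00331). Its lowest ethanol library, at 234 CPM, lay within the control range of 231 to 238 CPM.

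Among the NFI genes, *Nfic* had the largest fold change. Its IP control libraries lay between 196 and 205 CPM with a median of 200.3, and its IP ethanol libraries between 209 and 221 CPM with a median of 218 (log2 fold change 0.12, SE 0.0230, adjusted p = 2.57e-05). *Nfix* went from 635 ± 14.8 to 685 ± 21.9 CPM (0.115, SE 0.0232, adjusted p = 0.000108), and only its highest control library, at 661 CPM, passed its lowest ethanol library, at 658 CPM. With trends of GC content and transcript length removed, the effects of *Nfic* and *Nfix* were both 0.06 and still passed (adjusted p = 0.0125 and 0.0222). *Nfib* went from 279 ± 7.78 to 296 ± 9.31 CPM (0.09, SE 0.0242, adjusted p = 0.0036). *Nfia* went from 105 ± 3.78 to 110.1 ± 3.87 CPM, with overlap (0.07, SE 0.0267, adjusted p = 0.0352). The *Nfia* call did not hold in 9 of the 12 fits with 1 library left out (adjusted p up to 0.193, without IP control replicate 1), nor with DESeq2 (adjusted p = 0.0629). The calls of *Sox9*, *Sox2*, *Nfib*, *Nfic* and *Nfix* held in all 12. In IP replicates 1 to 3 alone *Sox2* (0.05), *Nfib* (0.07) and *Nfia* (0.08) did not pass, and in replicates 4 to 6 alone *Nfia* (0.06) did not.

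**Figure D3:**
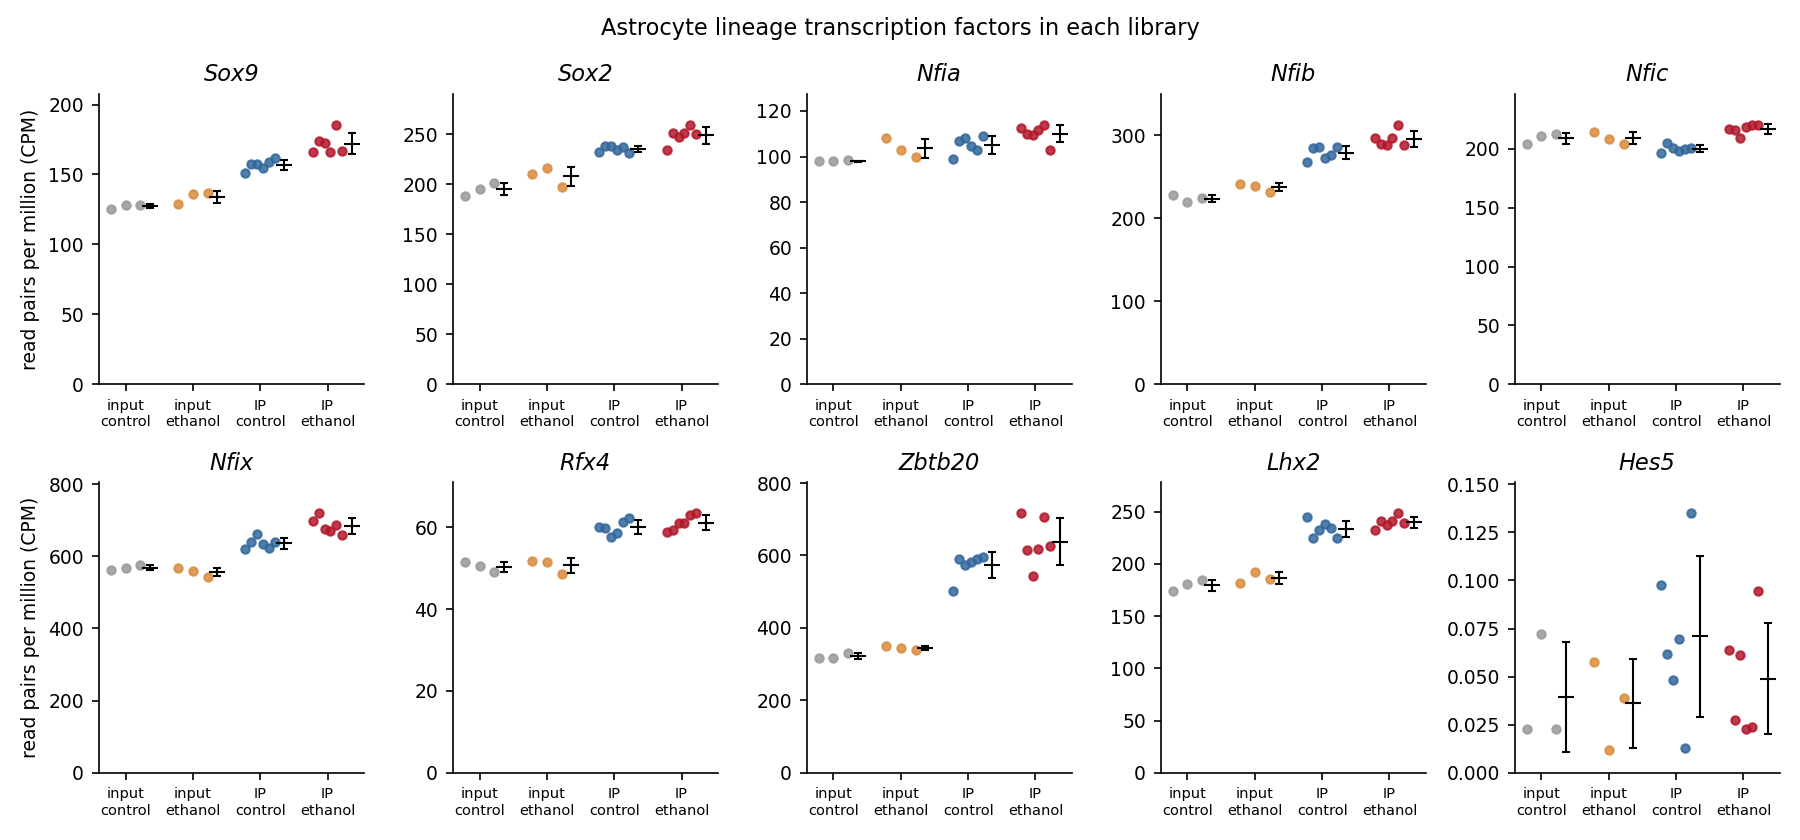
CPM of the 10 factors in each library, 1 panel per gene with its own axis from 0. Points are libraries, and the black bars beside them give mean ± SD of the 3 input or 6 IP libraries of a group. *Sox9* rises from 151.3 to 162 CPM in IP control to 166.2 to 186 CPM in IP ethanol, *Zbtb20* spreads widely in IP, and *Hes5* stays at or below 0.135 CPM.

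*Zbtb20* had the largest fold change with ethanol in IP among the abundant members, 0.16, yet did not pass the test (SE 0.0706, adjusted p = 0.148). Its IP libraries ran from 502 over a median of 587 to 597 CPM in control and from 544 over 622 to 717 CPM in ethanol, with overlap. The coefficient of variation in IP ethanol was 10.2%, larger than that of 99.3% of the 2351 genes with at least 100 CPM (median 3.17%), and in IP control it was 6.26% (median 2.43%). Without IP ethanol replicate 3, the lowest of its group, *Zbtb20* passed (0.20, adjusted p = 0.0448). It also passed in IP replicates 4 to 6 alone (0.14, adjusted p = 3.29e-05), and in replicates 1 to 3 alone its fold change was 0.17.

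*Zbtb20* has a longest transcript of 26901 bases, and the IP libraries in which it was farthest from its mean were also among those in which other long transcripts deviated. The 347 genes with a transcript over 10 kb and at least 1 CPM deviated from their IP mean by a median of 0.11 (log2) in IP ethanol replicate 5 and 0.06 in replicate 1, where *Zbtb20* deviated by 0.23 and 0.25. They deviated by -0.08 in IP ethanol replicate 3 and -0.06 in IP control replicate 1, where *Zbtb20* deviated by -0.15 and -0.26. With trends of GC content and transcript length removed, its ethanol fold change in IP was 0.12 and again did not pass. The part of transcript length in this spread was not tested.

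**Figure D4:**
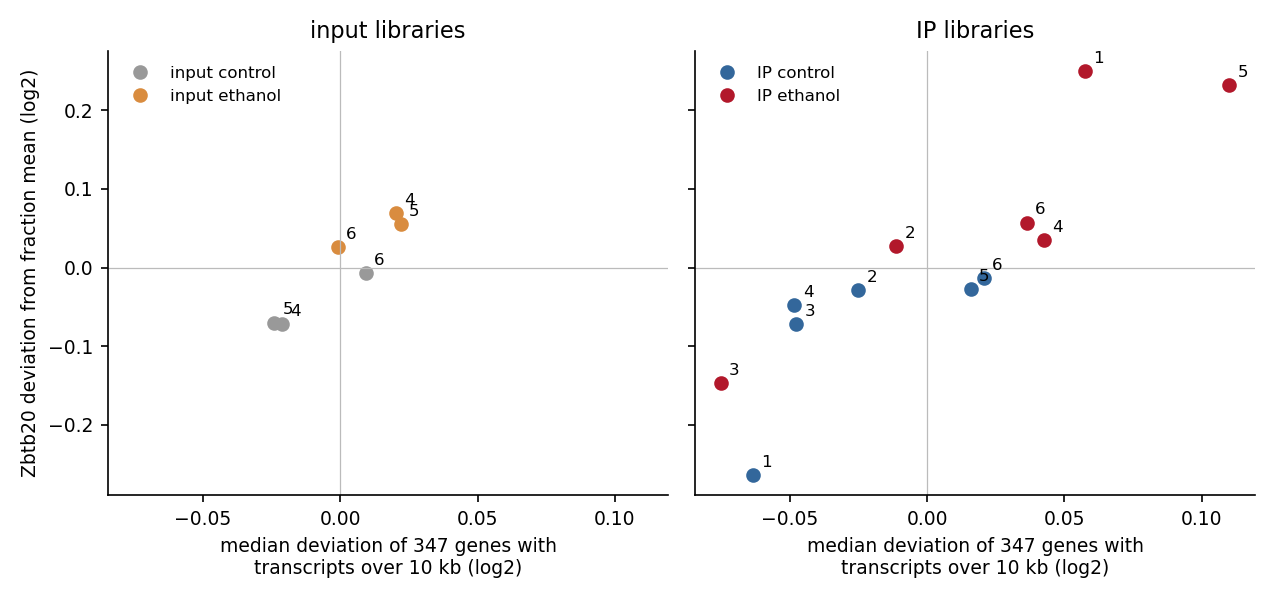
Log2 deviation of *Zbtb20* from the mean of its fraction against the median deviation of 347 genes with transcripts over 10 kb, each point 1 library with its replicate number (6 input libraries at left, 12 IP libraries at right). The 2 IP libraries with the highest *Zbtb20*, ethanol replicates 1 and 5, also have the highest medians, at 0.06 and 0.11.

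*Lhx2* (0.05, 95% interval 7.0e-05 to 0.10, adjusted p = 0.162), *Rfx4* (0.03, interval -0.02 to 0.09, adjusted p = 0.455) and *Hes5* (-0.54, interval -1.64 to 0.57, adjusted p = 0.575) did not pass in IP. *Lhx2* had 225 to 245 CPM in control and 233 to 249 CPM in ethanol, and *Rfx4* had 57.7 to 62.3 and 58.9 to 63.5 CPM. For these abundant factors the intervals leave room for rises of at most about 0.10 on the log2 scale, whereas that of *Hes5* leaves room for large changes in either direction.

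In the input fraction, 5 of the 10 members rose with ethanol and none fell (6 libraries), beside 15.0% of all genes that changed and 7.21% that rose. The 5 were *Zbtb20*, *Sox2*, *Nfib*, *Nfia* and *Sox9*. The median log2 fold change of the 10 was 0.06, beside -0.0009 over all genes. In *Sox9*, *Nfia*, *Nfib* and *Zbtb20* every ethanol library was above every control library, as it was in 14.0% of all genes. *Zbtb20* was 316, 317 and 331 CPM in control and 349, 345 and 338 CPM in ethanol dishes (0.10, SE 0.0228, adjusted p = 0.000431). *Nfib* was 228, 219 and 225 CPM in control and 241, 239 and 232 CPM in ethanol dishes (0.08, SE 0.0231, adjusted p = 0.00412). *Sox2* was 189, 196 and 201 CPM against 210, 216 and 198 CPM (0.09, SE 0.0232, adjusted p = 0.00235), with the lowest ethanol dish inside the control range.

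The remaining input calls were close to the threshold. *Nfia* was 97.85, 97.96 and 98.3 CPM in control and 108, 103 and 99.9 CPM in ethanol (0.08, SE 0.0261, adjusted p = 0.0254). *Sox9* was 126, 128 and 128 CPM in control and 129, 136 and 137 CPM in ethanol (0.07, SE 0.0246, adjusted p = 0.0405), and DESeq2 did not call it (adjusted p = 0.0721). Leaving out 1 of the 6 libraries left 2 to 5 members called, with 2 without input control replicate 4 or 5 and 3 without input control replicate 6 or input ethanol replicate 5. *Zbtb20* was the one member called in all 6 of these fits. In a fit of all 18 libraries, with a spread estimated over both fractions, none of the 5 passed (adjusted p from 0.0664 for *Sox2* to 0.588 for *Zbtb20*).

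*Nfic* and *Nfix*, which rose in IP, did not pass in input (adjusted p = 0.956 and 0.333). *Nfic* was 204, 211 and 212 CPM in input control and 214, 208 and 204 CPM in input ethanol (log2 fold change -0.0040, 95% interval -0.05 to 0.04). *Nfix* was 562.5, 566.5 and 577 CPM in input control and 567, 558 and 544 CPM in input ethanol (-0.04, interval -0.08 to 0.0075). In both genes the groups overlapped. *Lhx2* was 174, 181 and 184 CPM in input control and 181, 193 and 186 CPM in input ethanol (0.05, SE 0.0233, adjusted p = 0.137). *Rfx4* lay between 48.7 and 51.8 CPM in all 6 input libraries (0.0065, adjusted p = 0.945), and *Hes5* had 2, 7 and 2 pairs in control and 5, 1 and 3 in ethanol dishes.

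**Figure D5:**
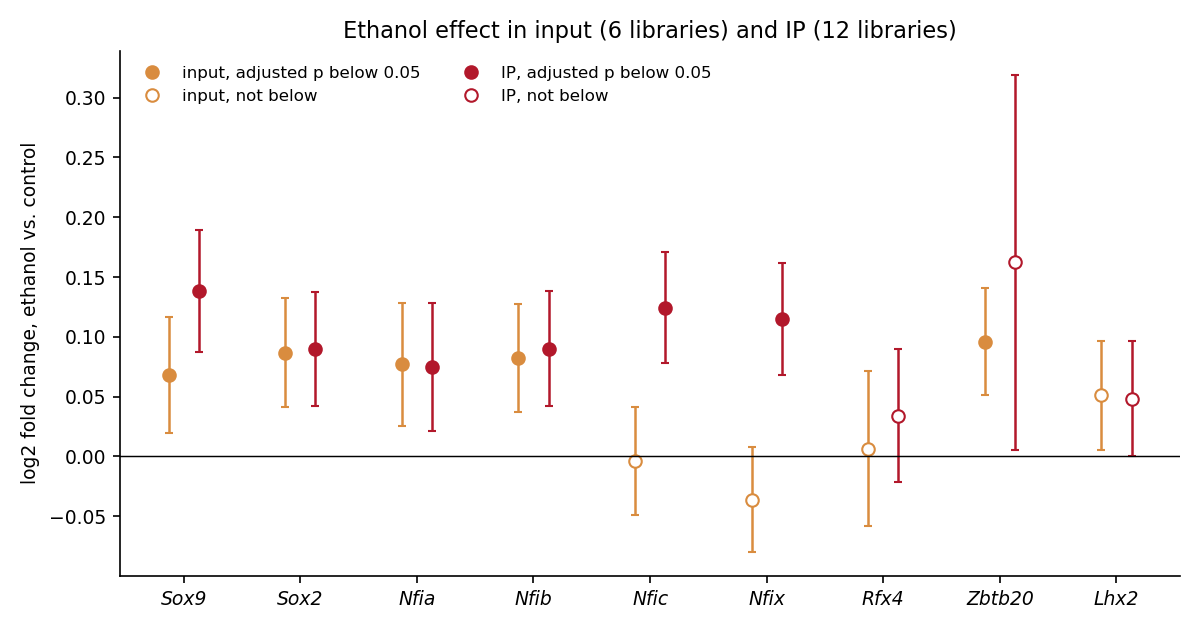
Log2 fold change of ethanol over control in input (6 libraries) and IP (12 libraries) for the 9 abundant factors, with 95% intervals from edgeR's quasi-likelihood fit. Filled points passed an adjusted p of 0.05. *Nfic* and *Nfix* are above 0 in IP (0.12 and 0.115) and at -0.0040 and -0.04 in input, whereas *Sox2*, *Nfia* and *Nfib* have nearly the same value in both fractions.

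Whether the ethanol effect differed between fractions was tested directly. In the interaction fit of all 18 libraries no gene passed (0.0% of genes tested; 1459 genes had an unadjusted p below 0.05, and DESeq2 called 2 genes). The difference was 0.12 for *Nfic* (SE 0.0366, unadjusted p = 0.00211, adjusted p = 0.675) and 0.14 for *Nfix* (SE 0.0368, unadjusted p = 0.000312, adjusted p = 0.675). When each of the 6 dishes with both fractions served as its own block (12 libraries), 0.416% of all genes passed, 94 with a higher effect in IP and 8 with a lower one, and 2 of the 10 members were among them. The blocked difference was 0.16 for *Nfic* (SE 0.0351, adjusted p = 0.00545) and 0.14 for *Nfix* (SE 0.0317, adjusted p = 0.00765). The IP to input ratio of *Nfic* lay between 0.947 and 0.970 in control dishes and between 1.02 and 1.08 in ethanol dishes, and that of *Nfix* between 1.10 and 1.13 and between 1.18 and 1.23. In both genes every ethanol dish was above every control dish.

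The longest transcripts of *Nfic* and *Nfix* have 57.5% and 57.1% GC, against 42.7% in *Nfia* and 43.3% in *Nfib*. Those of *Lhx2* (58.5%) and *Hes5* (62.1%) have more, and the remaining members have 43.0% to 50.5%. The blocked difference was 0.03 for *Lhx2* (adjusted p = 0.931) and -0.51 for *Hes5* (adjusted p = 0.984). With trends along GC and length taken out of the blocked fit, the difference was 0.09 for *Nfic* (adjusted p = 0.30) and 0.08 for *Nfix* (adjusted p = 0.235), and neither passed. The part of GC content and length in these differences was not tested. For the other 8 members the blocked difference did not pass, and its values for *Sox9* (0.07, adjusted p = 0.629) and *Zbtb20* (0.06, adjusted p = 0.729) were the next largest among the abundant ones.

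Values of other cells and of division moved with treatment beside these results. The summed astrocyte markers went from 1799 to 1880 CPM in IP control to 1926 to 2000 CPM in IP ethanol libraries, and from 1167 to 1212 CPM to 1222 to 1247 CPM in input. Of the 10 markers, 4 rose and none fell in IP, and 4 rose and 3 fell in input. The sum and these counts include *Sox9*, itself a member, which rose in both fractions. The other markers that rose were *Aqp4*, *Slc1a2* and *Slc1a3*, in both fractions. All 10 genes of dividing cells fell in both fractions, and their sum went from 175 to 187 CPM to 145.1 to 154.4 CPM in IP and from 176 to 180 CPM to 133.1 to 142 CPM in input. The microglia sum went from 23.1 to 27.3 CPM to 26.97 to 30.4 CPM in IP and from 82.1 to 85.3 CPM to 88.8 to 101 CPM in input, with 2 and 3 of 8 markers called higher. The endothelial and mural sum, nearly all of it *Acta2*, went from 1535 to 1669 CPM to 962 to 1160 CPM in IP and from 1165 to 1233 CPM to 767 to 835 CPM in input. *Acta2* fell by 0.56 in IP and 0.59 in input on the log2 scale and *Kdr*, an endothelial receptor, by 0.40 and 0.51, and none of the 7 markers tested rose. The oligodendrocyte lineage sum, mainly *Olig1*, went from 271 to 289 CPM to 250.4 to 272 CPM in IP and from 165.1 to 184 CPM to 161 to 166.8 CPM in input. Of its 9 markers, 2 rose and 1 fell in IP, and 3 rose and 1 fell in input. The marker that fell was *Olig1* in both fractions, whereas *Pdgfra* and *Cspg4* rose in both. The part of these in the rise of the factors was not tested.

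The lists of related genes gave the following counts with ethanol. Of the 14 SOX genes tested, 5 rose and none fell in IP, and 2 rose in input, *Sox21* by 0.19 (SE 0.0510). Of 6 RFX genes, 4 rose in IP and 1, *Rfx7*, in input (0.14, SE 0.0355), and none fell. Of 13 LIM homeobox and partner genes, 2 rose and 1 fell in IP, and 1 fell in input. The gene that fell was *Lmo4*, a LIM-only partner protein, in both fractions (-0.16, SE 0.0257 in IP and -0.11, SE 0.0235 in input). Of 12 Hes, Hey and Id repressors, 3 rose in IP, with *Id2* at 0.19 (SE 0.0303), while 4 rose and 1 fell in input, with *Id2* at 0.26 (SE 0.0323) and *Id3* at 0.15 (SE 0.0229). *Hes1* had -0.03 in IP and -0.0077 in input and did not pass.

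Of 16 Notch pathway genes, 6 rose in IP and 3 in input, and none fell. The ligand *Jag2* rose by 0.47 in IP (SE 0.0587) and 0.44 in input (SE 0.0731), and the coactivator *Maml3* by 0.29 (SE 0.0402) and 0.25 (SE 0.0494). Of 31 other astroglial factors, 17 rose and 2 fell in IP and 5 rose and 2 fell in input. *Pou3f2* (0.17, SE 0.0383 in IP) and *Smad1* (0.16, SE 0.0298) rose in both, and *Hopx* fell in both (-0.26, SE 0.0633 in IP and -0.28, SE 0.0694 in input).

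Of 18 genes named as NFI or SOX9 targets, 7 rose and 2 fell in IP, and 6 rose and 5 fell in input, so that these genes went both ways. *Aqp4*, the water channel of astrocyte endfeet, went from 261 ± 6.27 to 309 ± 10.9 CPM in IP (0.25, SE 0.0241), and *Slc1a3*, a glutamate transporter, from 350.4 ± 15.0 to 408 ± 6.34 CPM (0.23, SE 0.0242). *Fabp7*, a fatty acid binding protein of radial glia, fell in IP (-0.17, SE 0.0250) and input (-0.12, SE 0.0253). *Aldh1l1* fell in input (-0.13, SE 0.0233). Of 15 factors of other fates, 1 rose and 2 fell in IP and 1 fell in input, and *Olig1* fell in both (-0.17, SE 0.0248 in IP and -0.19, SE 0.0252 in input).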

How the data were processed

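Deposited counts were the number of read pairs per gene in each of 18 libraries. Per the labels and the study's methods, the authors used Trimmomatic for trimming and STAR for alignment to GRCm38 and for counting pairs without regard to strand (versions not given in the sources used here). Pairs on overlapping genes, on average 5.5%, were set aside, and no library was pooled or normalised. The table and the single-library files had 0 differences. Gene positions, GC content and lengths came from GENCODE M21, of the same build.

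Genes with at least 10 pairs over all libraries were tested with edgeR 4.0.16 (TMM, glmQLFit with robust estimation, glmQLFTest) in R 4.3.3, with Benjamini-Hochberg adjustment over all genes tested and a threshold of 0.05. IP vs. input used 18 libraries and a treatment term. The SE is the absolute log2 fold change divided by the square root of F. DESeq2 1.42.0 was an alternative, and the fits were tested on simulated data. The members and gene lists were chosen with earlier results of these data known. Genes named from a list are at most the 3 largest increases and 3 largest decreases per comparison with an adjusted p below 0.05, at least 1 CPM on average and no overlap between groups, apart from genes named for their level and *Hes1*.

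Deviations from group means correlated by 0.0191 to 0.153 between input and IP libraries of the same dish. Between dishes of the same treatment they correlated by -0.0943 to 0.0565. These values are small and their ranges overlap, but each input library correlated most with the IP library of its own dish. Whether libraries of a dish deviated together was not tested. The labels give each dish a number, so the dish is a true block. The IP vs. input calls of the members did not change with it.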

Additional observations from a re-analysis of the deposited data

Results flagged for a closer look

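*Nfib* in IP ethanol replicate 5 had 313 CPM, and its gap to the next of the 6 libraries was 0.649 of their range. *Zbtb20* in IP control replicate 1 had 501.5 CPM, the lowest of its 6 libraries, with a gap of 0.751 of the range. Both lie above Dixon's 95% critical value. These were 2 such libraries in 20 groups tested, and chance alone gives about 1 in 20 groups. Without the *Nfib* library, its ethanol fold change in IP was 0.07 and still passed (adjusted p up to 0.0326 over the fits with 1 library left out). Without the *Zbtb20* library, its ethanol fold change in IP was 0.12.

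The ethanol effect in IP minus that in input was 0.16 for *Nfic* and 0.14 for *Nfix* with the dish as a block (edgeR's quasi-likelihood test, adjusted p = 0.00545 and 0.00765). Neither passed in the fit of all 18 libraries. With GC and length trends removed in the blocked fit the values were 0.09 and 0.08, and neither passed (adjusted p = 0.30 and 0.235). Without that correction 94 of the genes called had a higher effect in IP and 8 a lower one, and with it 26 and 16.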

How the results depend on the processing

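Tested against a fold of 1.2, 4936 genes and 4 members differed between IP and input, 95 genes and 0 members changed with ethanol in IP, and 55 genes and 0 members in input. IP replicates 1 to 3 alone gave 2995 genes and 3 members for ethanol in IP. With a spread estimated over all 18 libraries, ethanol changed 2175 genes and 0 members in input. For the difference between fractions, DESeq2 called 2 genes, the replicate block by dish 102 genes and 2 members, and that block with GC and length trends removed 42 genes and 0 members. With those trends removed in IP, the ethanol effects of *Nfic* and *Nfix* were both 0.06. The block changed no other call of a member. Nothing but a number joins a control dish to an ethanol dish, and a block by that number gave 5782 genes and 7 members in IP (*Zbtb20* added) and 3829 genes and 5 members in input. Deviations of same-numbered control and ethanol libraries correlated by 0.0195 to 0.0657 in input and -0.104 to 0.221 in IP. Leaving out 1 library gave 2 to 5 members for ethanol in input (2 without input control replicate 4 or 5), 5 to 6 in IP, 8 between fractions, and 0 to 1 genes for the difference (1 without IP ethanol replicate 3).

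Some values that passed no test changed sign. The log2 fold change of *Nfic* between fractions was 0.0026 with no filter on low counts, 0.00071 with the dish block, 0.00053 in those 12 libraries without it, 0.054 in ethanol libraries and -0.020 to 0.0082 with 1 library left out. For ethanol in input, *Nfic* had 0.0047 with total counts, 7.57e-05 in all 18 libraries and -0.021 to 0.0077 with 1 library left out, *Rfx4* had -0.013 to 0.031 and *Hes5* -0.65 to 0.63. On the annotated strand *Hes5* had 0.17 for ethanol in IP and 1.47 for the difference. The difference of *Nfib* was 0.0024 with DESeq2 and with its size factors and 0.0088 with filterByExpr, where that of *Sox2* was 0.0039. With the dish block it was 0.046 for *Sox2*, 0.037 for *Nfib* and 0.029 for *Lhx2*, and with trends removed as well 0.065 and 0.021 for *Sox2* and *Nfib*. With 1 library left out it was -0.043 to 0.017 for *Sox2*, -0.039 to 0.012 for *Nfia*, -0.020 to 0.011 for *Nfib*, -0.012 to 0.034 for *Rfx4*, -0.041 to 0.0086 for *Lhx2* and -1.17 to 0.11 for *Hes5*. The cause was not tested. The depth limits *Hes5*, with 1 to 10 pairs per library.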
